A study of Mus musculus with 3 samples.

Results

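Main myelinating Schwann cells, the glia that wrap the larger axons of the mouse dorsal root ganglion (DRG) in myelin, were taken here from single cell counts. They made up 2955 of 9662 cells kept from 3 libraries. The cells were chosen by measured values. A kept cell had at least 500 detected genes and at most 20% of its unique molecular identifiers (UMIs, 1 for each captured RNA molecule) on mitochondrial genes. A member then had UMIs of at least 3 of 7 myelin genes, namely Prx, Mag, Drp2, Cldn19, Ncmap, Bcas1 and Pllp, and less than 0.2% of its UMIs on the satellite glia gene Fabp7. It had at most 1 UMI of Scn7a, which marks non-myelinating Schwann cells, and UMIs of fewer than 2 of the 5 genes Slit2, Scube1, Otop1, Mfap5 and Lox, which mark another myelinating subtype. At most 1 UMI of the neuronal genes Rbfox3 and Snap25 together was allowed, and none of the endothelial genes Cdh5 and Pecam1. The levels of all these genes are therefore a description of the choice and support nothing.

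The study asked whether the protein GFAP can serve to mark reactive satellite glia of mice and rats, after nerve injury or inflammation. Male C57BL/6J wild type mice in postnatal week 13 were either naïve (untreated) or received spared nerve injury (SNI), in which some branches of the sciatic nerve are lesioned and another is left intact, in both hindlegs 7 or 14 days earlier. Each group was 1 library of 8 lumbar ganglia (L3 and L4 of both sides) pooled from 2 mice, dissociated with enzymes and mechanically, and sequenced from the 3′ end of polyadenylated RNA with 10x Chromium v3. The naïve, 7-day and 14-day files held 3748, 3281 and 4908 barcodes with 23107376, 22343246 and 36550911 UMIs. The names of both injured libraries also carry the letters PBS, which the labels do not explain. The study's methods name female mice of another age and do not describe the single cell work, so sex and age are given as in the labels. For the single cell data its results name partial sciatic nerve ligation and its discussion spared nerve injury. The injury is therefore also given as in the labels. With 1 library a group no difference has a replicate check, the mice and the preparation of a library cannot be told apart from the injury, and cells are not replicates, so no test was made.

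Myelinating Schwann cells form compact myelin, held together by proteins such as Mbp and Pmp22, and keep channels and junctions of non-compact myelin open to their cytoplasm. Their outer membrane is tied to a basal lamina through Prx, Drp2 and the dystroglycan complex, and the transcription factors Sox10, Pou3f1 and Egr2 drive the myelin genes. In an injured nerve, Schwann cells beyond the lesion can lose this state and become repair cells that raise Jun, Shh, Gdnf and Ngfr, whereas the ganglion lies on the other side of the lesion.

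The naïve library gave 1044 members of 3152 kept cells, the 7-day library 793 of 2682 and the 14-day library 1118 of 3828. As shares these were 33.1% (exact Clopper-Pearson 95% interval 31.5 to 34.8), 29.6% (27.8 to 31.3) and 29.2% (27.8 to 30.7). Members held a median of 2270.5, 3201 and 3136.5 UMIs and of 1279, 1656 and 1624 genes, in the order naïve, 7 days and 14 days that is used for all values set side by side here, so the naïve members were the shallowest. Whether UMIs were evened between libraries before deposit is not given in the sources used here, so depths are those of the files. The members' median mitochondrial share was 9.48%, 9.82% and 11.2%. When each kept cell was thinned to 2000 UMIs, with 822, 384 and 440 shallower cells left out, the shares became 30.8% (28.9 to 32.7), 35.6% (33.6 to 37.6) and 34.2% (32.6 to 35.9). The order of the libraries differed after this step, which both evened the depth and left out shallower cells, so no order is read from the shares. No barcode was shared between members of different libraries, while 1 kept barcode was shared by the naïve and 7-day libraries, 5 by the naïve and 14-day libraries and 2 by the injured libraries.

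The 6 markers Prx, Mag, Drp2, Cldn19, Ncmap and Pllp summed to 6643, 7031 and 6407 counts per 1000000 UMIs (CPM) in the naïve, 7-day and 14-day members, against 826, 1202 and 999 CPM in the other kept cells. The 6 markers were part of the choice. Pmp22, a membrane protein of compact myelin and no part of the choice, stood at 11514, 11551 and 10756 CPM in members. It was at 379, 423 and 429 CPM in the Fabp7 gate, which holds cells with Fabp7 at or above 0.2% and fewer than 3 myelin genes, and at 113, 131 and 174 CPM in the endothelial gate, cells with at least 2 UMIs of Pecam1 and Cdh5. In the Lox set gate, cells with the same myelin genes and at least 2 of the 5 genes of the other myelinating subtype, Pmp22 was at 19758, 17128 and 16216 CPM, so its level marks myelinating cells and does not set the main subtype apart from the other. Just inside the limit, 59, 31 and 51 members had 3 of the 7 myelin genes, and their Pmp22 level was 4088, 2304 and 2683 CPM. Just outside it, 55, 57 and 73 cells with 2 of the genes that met every other condition held Pmp22 at 879, 920.2 and 703 CPM. Members with all 7 genes numbered 329, 377 and 475 and held Pmp22 at 12989.7, 12776 and 12394 CPM. At the Fabp7 limit, 6, 3 and 9 members lay between 0.15% and 0.2%, and 1, 6 and 1 cells lay just above it, up to 0.25%.

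Among genes not encoded by mitochondria, the RNA with the highest mean level in the members was the nuclear long non-coding RNA Malat1, with 40583, 37721 and 38033 CPM. The myelin genes Pmp22, Mbp and Cd9 and the iron store subunit Fth1 were also among the 15 most abundant. Mbp, the basic protein that joins the inner faces of the myelin membrane, stood at 10304 CPM in the naïve library (95% Poisson interval 10187 to 10423), 10589 (10467 to 10711) at 7 days and 9296 (9201 to 9391) at 14 days, lowest in the last. These intervals, and all others given here, cover counting error only. Pmp2, a fatty acid binding protein of some peripheral myelin, had 1 UMI in each library.

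Genes outside the choice that stood highest in the members relative to the other kept cells were selected on that ratio and are a description. By the smallest of the 3 library ratios Npr3, the clearance receptor for natriuretic peptides, came first, with 12.8 times the level of the other cells in the naïve library, 17.5 times at 7 days and 27.5 times at 14 days. Its level was 39.5, 71.3 and 69.8 CPM, higher in both injured libraries, 1.80-fold at 7 days (95% interval of the ratio 1.42 to 2.30) and 1.77-fold at 14 days (1.41 to 2.22). Lrrtm4, a leucine-rich repeat adhesion protein, exceeded the other cells 14.9, 13.1 and 11.3 times. Slc9a3, a sodium-proton exchanger, exceeded them 20.4, 12.8 and 10.1 times. It held 72.0, 82.6 and 40.1 CPM and was thus lowest at 14 days, at 0.557 times the naïve level (0.450 to 0.688) and 0.485 times the 7-day level (0.394 to 0.597). The transcription factor Pou3f1 exceeded the other cells at least 7.45 times in each library. Egr2, the myelin enzyme Cnp, the cell cycle inhibitor Cdkn1b, the potassium channel Kcna1, the peptidase Mme and the nodal protein Gldn all had a smallest ratio between 5.995 and 6.80. Several of these genes were also abundant in the Lox set gate, where Egr2 held 178, 256 and 294 CPM, Kcna1 1059, 1365 and 1194 CPM and Nr4a2 313, 461 and 445 CPM. Gldn held 510.5, 481 and 412 CPM there and Pou3f1 373, 483 and 431 CPM. Slc9a3 held 36.9, 45.7 and 31.0 CPM in that gate and Lrrtm4 26.2, 30.2 and 28.2 CPM, whereas Npr3 held 3.36, 7.54 and 5.07 CPM. Nr4a2, an orphan nuclear receptor that responds to activity, held 333, 471 and 510.0 CPM and passed 1.5-fold at 14 days (1.53, 1.42 to 1.66). Rasal2, a Ras GTPase activating protein, held 698, 948 and 1089 CPM and also passed at 14 days (1.56, 1.48 to 1.65).

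How unevenly a gene was spread over the members was measured as variance over mean of its UMIs, with 635, 680 and 963 members thinned to 2000 UMIs. The median over 3622 genes of the smallest of the 3 library values was 0.986. Malat1 had 19.1, 13.1 and 14.8 in library order, and Pmp22 7.53, 5.83 and 6.13. The lipid carrier Apoe, with 10.1, 10.3 and 15.1, and the endothelin receptor Ednrb, with 3.95, 4.93 and 6.17, were also uneven. Ednrb UMIs lay in 171 of the 1044 naïve members, 163 of the 793 at 7 days and 209 of the 1118 at 14 days. The 6 satellite glia markers, of which Fabp7 was part of the choice, summed to 1404, 1078 and 1171 CPM in members and to 4127, 3845 and 2949 CPM in other kept cells, and their most abundant gene in members was Hmgcs1. Ednrb itself belongs to these markers, and what part the others have in this unevenness was not tested. Dcn, a fibroblast proteoglycan, had 15.1, 7.66 and 19.6, but 39.4%, 72.4% and 71.1% of its UMIs lay in a single member.

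Comparisons between libraries used the summed UMIs of the members, 2834117 in the naïve, 2748689 in the 7-day and 3968734 in the 14-day library. A gene counted as higher or lower where log2 of the ratio of CPM + 1 passed 1.5-fold, and 6733 genes had a mean of at least 20 CPM and were compared. At 7 days against naïve, 79 genes (1.17%) were higher and 94 (1.4%) lower. At 14 days, 108 (1.6%) were higher and 131 (1.95%) lower. In members without any Fabp7 UMI the counts were 131 higher and 85 lower at 7 days and 186 and 159 at 14 days, and in thinned members 211 and 165, and 266 and 226, so neither direction is read as the more common. In both injured libraries, which share the naïve library, 39 genes (0.579%) were higher and 37 (0.55%) lower. Between 14 and 7 days 54 genes (0.802%) were higher and 50 (0.743%) lower. The median log2 ratio over all compared genes was 0.0038 at 7 days, -0.0021 at 14 days and -0.0106 between the injured libraries. Each list named in what follows is given as the number of its genes past 1.5-fold among those that reached 20 CPM, to be read against these shares, with the median log2 ratio of the list. The mean was taken over the 3 libraries, so a gene could reach it through those where it was high. Of the listed genes past 1.5-fold, Isg15, Ifit1, Ifit3, Ifi27l2a, Hsph1, Hlf, Socs3, Cdh2, Spry2 and Dhcr7 lay below 20 CPM in at least 1 library, so counts and medians of their lists are a description. Whether the counting used strand is not given in the sources used here. Overlap with a gene on the opposite strand therefore leaves Nab2 (Nemp1 and others), Cyp51 (Akap9), Nefl (Nefm), Ccnd1 (LTO1), Cnp (Dnajc7), B2m (Patl2), Csf1r (Hmgxb3), Tagln (Pcsk7) and Egfl7 (Agpat2) uncertain, beside those named with their values, and several named genes overlap predicted genes or antisense RNAs.

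Genes of myelin did not pass 1.5-fold in the members. Since a member had to carry at least 3 of the 7 myelin genes, a cell that lost them would leave the set, and these levels are in part fixed by the choice. Of the 7 compact myelin genes compared, 0 passed 1.5-fold in either injured library, and the list's median was 0.13 at 7 days and -0.04 at 14 days. Its lowest ratio was that of Cd9, a tetraspanin, with 4106, 3849 and 3626 CPM, or 0.937 times (0.913 to 0.963) and 0.883 times (0.862 to 0.905) the naïve level. Pmp22, whose dosage causes inherited neuropathy, held 11514, 11551 and 10756 CPM, a ratio of 1.003 (0.988 to 1.02) and 0.934 (0.921 to 0.948). In the other kept cells the same list had a median of 0.41 at 7 days and 0.21 at 14 days. Among 14 genes of non-compact myelin, paranodes and junctions 0 passed, with medians of 0.10 and -0.02 and a range from -0.06 (Gjb1) to 0.32 (Cadm4) at 7 days. Mag, Cldn19, Ncmap and Pllp belong to this list and were part of the choice of cells. Gjb1, the connexin of Schmidt-Lanterman incisures and paranodes, held 89.6, 85.9 and 87.7 CPM. Of 18 genes of the outer membrane and basal lamina 0 passed, with medians of 0.02 and -0.05, and the lowest were Agrn at 7 days (-0.50), an organiser of receptors in the basal lamina, and the laminin chain Lamc1 at 14 days (-0.42). Across 13 genes of inherited demyelinating neuropathy 0 passed in either comparison, with medians of 0.11 and -0.02. Prx, in both of these lists, and Drp2, in the first, were also part of the choice.

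**Figure D1:**
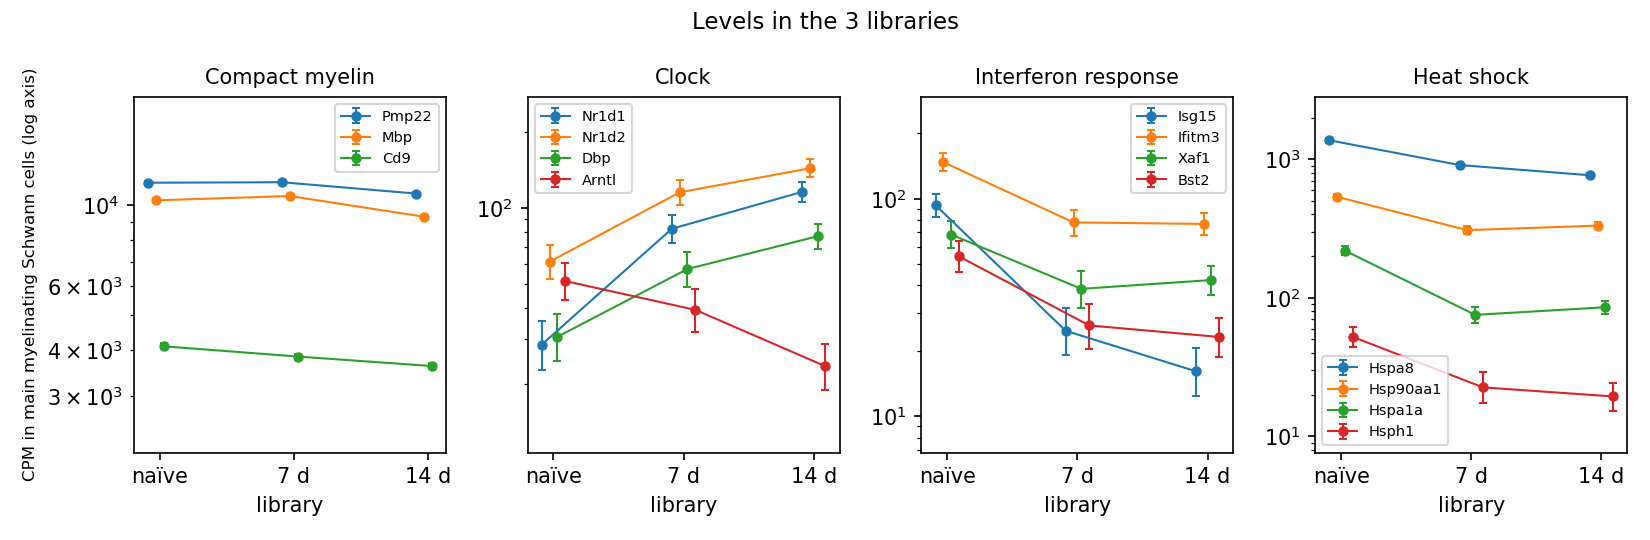
Levels in main myelinating Schwann cells of the naïve, 7-day and 14-day libraries in CPM on a log axis, with bars for the 95% counting interval and 1 library a group. The compact myelin genes shown did not pass 1.5-fold in either injured library, Nr1d1, Nr1d2 and Dbp rise with Arntl lower at 14 days, and the interferon and heat shock genes shown are lower in both injured libraries.

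Of 11 myelinating-state factors and cofactors compared, Nab2 alone passed 1.5-fold, at 14 days. Sox10 held 531, 474 and 469 CPM, Egr2 234, 302 and 259 CPM, and Pou3f1 824, 968 and 873 CPM, none of them past 1.5-fold. Nab2, a corepressor of Egr2, held 102, 93.9 and 67.8 CPM, at 14 days 0.662 times the naïve level (0.559 to 0.785), a call that stayed past 1.5-fold in 6 of 13 alternative settings. Of 9 compared genes among the 16 listed for the immature and repair states, 2 were higher in both injured libraries (Egr1 and Stat3) and 1 lower in both (Egr3). At 7 days Id3 was also lower (0.657 times the naïve level, 0.562 to 0.767), with a log2 ratio of -0.26 in members without any Fabp7 UMI, and at 14 days Id2 was also higher. The list's median was -0.08 and -0.01, and over 13 alternative settings it ran from -0.50 to 0.38 and from -0.30 to 0.51. At 7 days 0 to 3 of its genes were higher and 0 to 4 lower in these settings. At 14 days 2 to 4 were higher and 0 to 4 lower, so no direction of the list is read.

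Stat3, the factor activated by gp130 cytokines, held 76.9, 120 and 131 CPM. Both injured libraries were higher, 1.56-fold (1.31 to 1.86) and 1.70-fold (1.45 to 2.00), against 1.11 and 1.24-fold in the other kept cells. Its log2 ratio at 7 days was below the threshold with 1000 or more genes and no more than 10% mitochondrial UMIs (0.54) and where every member with any UMI of another cell type's markers was left out (0.49). Egr1, an immediate early factor, held 86.1, 140 and 151 CPM, likewise higher in both at 1.63-fold (1.39 to 1.92) and 1.76-fold (1.51 to 2.05). With a filter of 1000 or more genes and no more than 10% mitochondrial UMIs its log2 ratios were 0.03 and 0.29, below the threshold. Id2, an inhibitor of helix-loop-helix factors, held 75.5, 113 and 131 CPM and passed at 14 days (1.73, 1.47 to 2.04). Jun, the factor that sets up the repair state, held 193, 239 and 248 CPM, a ratio of 1.24 (1.10 to 1.39) and 1.29 (1.16 to 1.43), below the threshold in both. Sox2 held 130, 106 and 116 CPM. Egr3 held 82.2, 35.7 and 39.8 CPM, 0.434 times (0.339 to 0.551) and 0.484 times (0.393 to 0.595) the naïve level, but its UMIs lay in 40, 26 and 52 members. In the Fabp7 gate Egr3 held 240, 130 and 125 CPM, and in the Lox set gate 6.0, 6.1 and 13.6 CPM. Egr3 itself belongs to the satellite glia markers, whose sum in members was highest in the naïve library (1404, 1078 and 1171 CPM). The sum is therefore not separate from Egr3, and the part of the other markers' cells in its level was not tested. In members without any Fabp7 UMI the log2 ratio of Egr3 was -0.46 at 7 days and turned to 0.52 at 14 days.

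Of 26 listed repair cell effectors, 9 reached 20 CPM, of which 0 were higher and 1 lower at 7 days, and 1 higher and 1 lower at 14 days, with medians of -0.28 and -0.08. Artn, Lif and Fgf5, secreted signals of repair cells, had 0 UMIs in all 3 libraries, which allows up to 1.06, 1.09 and 0.756 CPM. Gdnf, a survival factor for neurons, had 0, 0 and 2 UMIs and Shh 0, 0 and 1. Olig1 had 0 in each library. The neurotrophin receptor Ngfr held 4.94, 6.91 and 7.06 CPM, a ratio whose interval includes 1 in both comparisons (0.665 to 3.02 and 0.727 to 2.94). Atf3, an injury-induced factor, held 4.23, 6.91 and 5.29 CPM in members. Gfap had 1, 4 and 3 UMIs, too few to rank the libraries.

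Gap43, a growth-associated protein of repair cells and of growing axons, lay below 20 CPM in each library with 5.29, 16.7 and 17.6. Both injured libraries were higher, 3.16-fold (1.73 to 6.10) and 3.33-fold (1.89 to 6.27), and the other kept cells 2.68 and 4.20-fold. Summed neuron markers were also higher in the injured members and are given with their values where those markers are described. Ncam1, an adhesion molecule of immature and non-myelinating Schwann cells, held 182, 116 and 145 CPM and fell at 7 days to 0.639 times the naïve level (0.554 to 0.737). Without any Fabp7 UMI its log2 ratio at 7 days was 0.01. Igfbp5, a binding protein of insulin-like growth factors, held 344, 429 and 533 CPM and passed at 14 days (1.55, 1.44 to 1.68), with a log2 ratio of 0.34 in thinned members. Cdh2, N-cadherin, held 26.1, 19.3 and 15.4 CPM and was lower at 14 days (0.589, 0.412 to 0.838).

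Of 13 compared neuregulin and ErbB pathway genes 0 passed, with medians of 0.09 and 0.06, and the receptor Erbb3 held 334, 343 and 338 CPM. Of 18 trophic and secreted factors 6 reached 20 CPM, of which 1, the lipid carrier Apod, was higher at 7 days. Apod held 266, 476 and 371 CPM, but 44.9% of its 7-day UMIs lay in 1 member, and without each library's highest member, a setting added after seeing the data, its log2 ratio at 7 days was 0.16. Cntf, which overlaps Zfp91 on its own strand, had 1 UMI in each library. Of 4 compared feedback genes of ERK signalling 1 was lower in both injured libraries. This was Spry2, an inhibitor of receptor tyrosine kinase signals, with 31.1, 19.7 and 11.8 CPM, or 0.633 times (0.442 to 0.898) and 0.381 times (0.262 to 0.550) the naïve level. Its log2 ratio at 7 days was 0.01 where every member with any UMI of another cell type's markers was left out.

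Of 18 compared genes of cholesterol synthesis and uptake, 1 was lower at 7 days and 2 at 14 days. A ratio below 1 was held by 17 at 7 days and 17 at 14 days, with medians of -0.18 and -0.34 and, over 13 alternative settings, medians from -0.29 to -0.06 and from -0.41 to -0.24. With 1000 or more genes and no more than 10% mitochondrial UMIs, 11 of the 18 had a ratio below 1 at 7 days and 7 a ratio above 1. In the other kept cells the medians were -0.29 and -0.33. Past 1.5-fold were Dhcr7, the last step to cholesterol, at 7 days (0.541 times the naïve level, 0.363 to 0.796), and Fdps and Cyp51 at 14 days. Fdps, which makes farnesyl pyrophosphate, held 91.4, 70.9 and 49.4 CPM, 0.540 times the naïve level at 14 days (0.447 to 0.653). Cyp51, the lanosterol demethylase, held 93.2, 79.3 and 60.5 CPM, 0.649 times at 14 days (0.543 to 0.776). The log2 ratios were below the threshold where every member with any UMI of another cell type's markers was left out for Dhcr7 at 7 days (-0.27) and Fdps at 14 days (-0.35), and with 1000 or more genes and no more than 10% mitochondrial UMIs for Cyp51 at 14 days (-0.28). Satellite glia markers, led by Hmgcs1 of the same list, were highest in naïve members (1404, 1078 and 1171 CPM), and their part in these values was not tested. In the Fabp7 gate Hmgcs1 held 1367, 1256 and 1054 CPM and Cyp51 272, 207 and 174 CPM. In members without any Fabp7 UMI the medians of the list were -0.29 and -0.35, with Dhcr7 at -0.72 at 7 days and Fdps at -0.98 and Cyp51 at -0.85 at 14 days. Of 17 fatty acid and myelin lipid genes 0 passed, with a median of -0.02 in both. Of 11 genes of lactate and glucose use 0 passed, with medians of -0.08 and -0.19. Of 12 autophagy and lysosome genes 0 passed, with medians of -0.03 and 0.02.

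Among 12 compared channels and transporters 1 passed, Kcnj10 at 7 days, and the medians were -0.02 and -0.14. Kcnj10, an inward rectifier that takes up potassium and is abundant in satellite glia, held 124, 70.9 and 83.7 CPM, 0.573 times the naïve level at 7 days (0.478 to 0.684). Its UMIs lay in 103, 68 and 109 members, and in members without any Fabp7 UMI the log2 ratio was -0.53 at 7 days. Cell cycle genes were scarce, with 3 of 10 at 20 CPM or more, and Mki67, which marks dividing cells, had 4, 6 and 5 UMIs. Ccnd1, the cyclin of early G1 phase, held 79.4, 37.8 and 60.7 CPM, 0.477 times the naïve level at 7 days (0.374 to 0.604), with UMIs in 43, 27 and 61 members. Without any Fabp7 UMI its log2 ratio at 7 days turned to 0.66.

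Of 13 compared clock genes, 4 rose in both injured libraries (Nr1d1, Nr1d2, Dbp and Hlf), Per3 rose at 14 days and Arntl fell at 14 days, for 4 higher and 0 lower at 7 days and 5 higher and 1 lower at 14 days. Hlf lay below 20 CPM in the naïve library and was compared through the injured libraries, so counts and medians of this list are a description. The medians were 0.32 and 0.43, within 0.18 to 0.44 and 0.32 to 0.53 over 13 alternative settings. In the other kept cells they were 0.29 and 0.36, so the shift was not confined to the members. Nr1d1 (ENSMUSG00000020889, chr11:98767932-98775333 on the minus strand of mm10), which encodes the clock repressor Rev-erb alpha, held 28.6 CPM (22.7 to 35.5) in the naïve library, 82.6 (72.2 to 94.1) at 7 days and 116 (105 to 127) at 14 days. The naïve library was lowest and the 14-day library highest. The ratio was 2.89-fold (2.23 to 3.77) and 4.05-fold (3.19 to 5.19), past 1.5-fold in all 13 alternative settings, against 1.80 and 2.09-fold in the other kept cells. The time of day of dissection is not given in the sources used here, and it cannot be told apart from the groups.

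Nr1d2, the related repressor Rev-erb beta, held 61.0, 115 and 144 CPM, 1.89-fold (1.57 to 2.29) and 2.35-fold (1.98 to 2.81). Dbp, an activator of clock output genes, held 30.7, 57.1 and 77.1 CPM, 1.86-fold (1.42 to 2.45) and 2.51-fold (1.97 to 3.23). Hlf, of the same family as Dbp, held 16.2, 36.4 and 41.8 CPM, 2.24-fold (1.57 to 3.25) and 2.58-fold (1.85 to 3.66). For Dbp the log2 ratio was 0.53 in both, below the threshold, where every member with any UMI of another cell type's markers was left out. All 3 were lowest in the naïve and highest in the 14-day library. Per3, a period protein, held 92.1, 132 and 167 CPM and passed at 14 days (1.81, 1.57 to 2.10). Arntl, the activator that Rev-erb proteins repress, ran the other way with 51.2, 39.3 and 23.4 CPM, 0.768 times (0.593 to 0.992) and 0.458 times (0.349 to 0.598) the naïve level. Between 14 and 7 days it was 0.596 times as high (0.447 to 0.794). Nr1d1 overlaps Thra and Dbp overlaps Sphk2 on the opposite strand, and Per3 overlaps Camta1 on its own strand, so these pairs are uncertain.

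Nr1d1 was also measured in other gates of the same libraries. The Lox set gate (331, 351 and 546 cells) held 22.8, 78.2 and 85.5 CPM. The Fabp7 gate (576, 380 and 463 cells) held 42.8, 75.4 and 96.9 CPM. The endothelial gate (286, 197 and 325 cells) held 155, 216 and 224 CPM. In each gate the naïve library was lowest. The E-box sequence CACGTG, which clock activators bind, was searched on both strands in the 250 bases before each start and stood in 6.02% of 32851 RefSeq promoters. It stood in 5 of 15 clock genes with a promoter (Tef, Per1, Cry1, Ciart and Bhlhe41), of which Ciart was below 20 CPM and was not compared, and 0 of the other 4 passed 1.5-fold. The share counts promoters and the list counts genes with any matching promoter, so they are unlike measures.

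Of 8 compared genes that glucocorticoids induce 0 passed at 7 days and 2 were lower at 14 days (Tsc22d3 and Sgk1), with medians of -0.08 and -0.36. Tsc22d3 (ENSMUSG00000031431, chrX:140539528-140600659, minus strand), known as Gilz, held 322 CPM (302 to 344), 248 (230 to 267) and 136 (125 to 148). The 14-day library was lowest, at 0.423 times the naïve level (0.380 to 0.471) and 0.550 times the 7-day level (0.491 to 0.617), against 0.644 times naïve in the other kept cells. Sgk1, a kinase that acts on channels and transporters, held 200.4, 177 and 108 CPM, at 14 days 0.539 times the naïve level (0.475 to 0.613). Both stayed past 1.5-fold at 14 days in all 13 alternative settings. In the Lox set gate Tsc22d3 held 346, 267 and 143 CPM, and in the Fabp7 gate 116, 103 and 88.6 CPM.

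The interferon response genes compared here were lower in both injured libraries than in the naïve library. Ifit1 reached the mean of 20 CPM only through the naïve library. Isg15, Ifi27l2a and Ifit3 also lay below 20 CPM in at least 1 library, so counts and medians of this list are a description. Of 9 compared, all had a ratio below 1 in both, 8 fell at 7 days, 8 at 14 days and 7 in both. Ifi27 was short of the threshold at 7 days and Ifit3 at 14 days. The medians were -1.02 and -0.93, and over 13 alternative settings they ran from -1.12 to -0.88 and from -1.14 to -0.74. In the other kept cells they were -0.53 and -0.79. Isg15 (ENSMUSG00000035692, chr4:156199424-156200818, minus strand), a ubiquitin-like protein, held 93.5 CPM (82.6 to 106) in the naïve library, 24.7 (19.2 to 31.4) at 7 days and 16.1 (12.4 to 20.6) at 14 days. That was 0.265 times (0.1996 to 0.347) and 0.173 times (0.129 to 0.227) the naïve level, against 0.361 and 0.242 times in the other kept cells. Its UMIs came from 91, 33 and 35 members.

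Ifit1, which binds viral RNA, held 52.9, 6.91 and 17.4 CPM, 0.131 times (0.0765 to 0.211) and 0.329 times (0.243 to 0.440) the naïve level. The 7-day library was lowest, and 14 days stood 2.52-fold above it (1.496 to 4.43). Ifi27l2a held 65.6, 17.5 and 26.2 CPM and Bst2, a tether for enveloped virions, 54.3, 26.2 and 23.2 CPM. For Bst2 this was 0.482 times (0.359 to 0.642) and 0.427 times (0.326 to 0.556). Ifitm3, a membrane protein that blocks virus entry, held 147, 77.9 and 76.6 CPM, 0.529 times (0.447 to 0.625) and 0.521 times (0.448 to 0.605), though its log2 ratio at 7 days was -0.53 in members without any Fabp7 UMI. Xaf1, with 68.5, 38.6 and 42.3 CPM, and Ifi27, with 186, 124 and 122 CPM, had the naïve library highest as well. Gbp2, a guanylate binding protein, held 68.5, 23.3 and 33.3 CPM, with 27.8% of its naïve UMIs in 1 member. It was 0.340 times (0.252 to 0.453) and 0.486 times (0.387 to 0.609) the naïve level.

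In other gates of these libraries Isg15 was also highest in the naïve library, with 202, 38.2 and 15.8 CPM in the Lox set gate, 150, 43.6 and 37.4 CPM in the Fabp7 gate and 253, 110 and 107 CPM in the endothelial gate. Of 4 compared genes of MHC class I antigen presentation all had a ratio below 1 at 7 days, 0 passed at 7 days and 1 was higher at 14 days, with medians of -0.16 and 0.37. H2-D1, a class I heavy chain, held 177, 137 and 267 CPM, 1.51-fold the naïve level at 14 days (1.35 to 1.68) and 1.95-fold the 7-day level (1.73 to 2.20). Its log2 ratio over naïve at 14 days was 0.53, below the threshold, where every member with any UMI of another cell type's markers was left out. H2-K1 held 121, 110 and 172 CPM and the light chain B2m 708, 624 and 839 CPM, both highest at 14 days and below 1.5-fold over naïve.

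Promoters of the interferon list are shown because all of its compared genes had a ratio below 1 in both injured libraries. This choice was made from the same data, with Ifit1 compared only through its naïve level. The promoters therefore lend no support to the direction of the list. A match was 2 copies of GAAA with any 2 bases between them, the core of the interferon response element, searched on both strands in the 250 bases before the start. It stood in 978 of 32851 promoters (2.98%). Of 14 listed genes, compared or not, 9 had a promoter and 5 a match (Isg15, Ifit1, Ifit3, Ifit3b and Bst2). The list counts genes and the share counts promoters, so they are unlike measures. The matched stretches of Ifit3 and Ifit3b have identical letters. Ifit3 did not pass 1.5-fold at 14 days (log2 ratio -0.35), and no level of Ifit3b is given here. The stretches below come from RefSeq (GRCm38.p6), read in the direction of the gene, with matches in capitals, joined where they overlap. For Isg15 the stretch is chr4:156200860-156200911 on the minus strand, 93 to 42 bases before the start. For Ifit1 it is chr19:34640770-34640828 on the plus strand, 119 to 61 bases before the start, and for Bst2 chr8:71537572-71537617 on the minus strand, 145 to 100 bases before the start. A match is a description of letters and does not show binding.
Isg15: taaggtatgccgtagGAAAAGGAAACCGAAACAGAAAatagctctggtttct
Ifit1: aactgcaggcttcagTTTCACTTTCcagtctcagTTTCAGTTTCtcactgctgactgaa
Bst2: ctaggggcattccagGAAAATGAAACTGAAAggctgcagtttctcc

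Of 11 compared heat shock genes, all had a ratio below 1 in both, 6 fell at 7 days, 7 at 14 days and 5 in both (Hspa1a, Hsph1, Dnajb1, Hspa8 and Hsp90aa1). The medians were -0.59 and -0.69, from -0.77 to -0.52 and from -0.71 to -0.60 over 13 alternative settings, and -0.38 and -0.47 in the other kept cells. Hsph1 lay below 20 CPM at 14 days, so these counts and medians are a description. Hspa1a (ENSMUSG00000091971, chr17:34969190-34972156, minus strand), an inducible Hsp70, held 219 CPM (202 to 237) in the naïve library, 75.3 (65.4 to 86.3) at 7 days and 85.4 (76.6 to 95.01) at 14 days. This was 0.344 times (0.292 to 0.403) and 0.390 times (0.341 to 0.446) the naïve level, against 0.442 and 0.346 times in the other kept cells. Its near-identical copy Hspa1b held 499, 298 and 344 CPM, and reads of the copies may be split between them, so both are uncertain. Hspa1a also overlaps Gm20481 on the opposite strand.

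Hsp90ab1, the most abundant gene of the list, held 1666, 1153 and 1124 CPM and did not pass 1.5-fold. Hspa8, the constitutive Hsc70, held 1372, 909 and 767 CPM, 0.663 times (0.630 to 0.697) and 0.559 times (0.533 to 0.587). Hsp90aa1, an Hsp90 chaperone, held 536, 308 and 332 CPM, 0.574 times (0.527 to 0.625) and 0.620 times (0.575 to 0.668). The nucleotide exchange factor Hsph1 held 52.2, 22.6 and 19.4 CPM, and the Hsp40 protein Dnajb1 52.2, 26.2 and 23.2 CPM. In each of these genes the naïve library was highest. In the Lox set gate Hspa1a held 198, 69.3 and 59.2 CPM, in the Fabp7 gate 164, 71.9 and 72.1 CPM and in the endothelial gate 108, 30.9 and 12.6 CPM. The promoter search used GAA, any 2 bases and TTC, an inverted repeat of the heat shock element, on both strands. It stood in 2199 of 32851 promoters (6.69%) and in 6 of 9 listed genes with a promoter. The share counts promoters and the list counts genes with any matching promoter, so they are unlike measures. Hspd1 and Hspe1 share the same stretch, and those of Hspa1a and Hspa1b have identical letters, so the matches are not separate. The stretch of Hspa1a, shown as the gene with the lowest ratio of the list at 7 days, is RefSeq (GRCm38.p6) chr17:34972238-34972275 on the minus strand, 119 to 82 bases before the start, with the match in capitals.
Hspa1a: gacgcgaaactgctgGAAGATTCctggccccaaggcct

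Of 10 listed acute phase and complement genes C4b, Serping1 and Socs3 reached 20 CPM. Socs3 did so only through the injured libraries, so no count or median of the list is given. C4b (ENSMUSG00000073418, chr17:34728380-34743882, minus strand), the complement factor C4, held 21.5 CPM (16.5 to 27.7), 48.4 (40.5 to 57.3) and 66.8 (59.0 to 75.3). The naïve library was lowest, with ratios of 2.25 (1.65 to 3.10) and 3.10 (2.34 to 4.17), against 1.47 and 1.46 in the other kept cells. Socs3, an inhibitor that Stat3 induces, held 13.8, 24.7 and 33.8 CPM, 1.80-fold (1.20 to 2.74) and 2.45-fold (1.71 to 3.601), with 1.85 and 2.51-fold in the other kept cells. Serping1, the C1 inhibitor, held 20.1, 22.6 and 22.2 CPM. In the Lox set gate C4b held 20.2, 42.9 and 48.4 CPM, in the Fabp7 gate 113, 145 and 240 CPM.

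Of 10 compared immediate early genes 2 were higher and 0 lower at 7 days, and 2 higher and 1 lower at 14 days, with medians of 0.18 and 0.34. Over 13 alternative settings the medians ran from -0.07 to 0.36 and from 0.26 to 0.55. In these settings 0 to 4 genes were higher and 0 to 1 lower at 7 days, and 1 to 5 higher and 0 to 2 lower at 14 days. Fos held 202, 341 and 285 CPM and passed at 7 days (1.69, 1.52 to 1.87), with a log2 ratio of 0.19 under the filter of 1000 or more genes and no more than 10% mitochondrial UMIs. Junb, a partner of Fos, held 59.6, 85.1 and 133 CPM and passed at 14 days (2.23, 1.87 to 2.66), when it was highest. Klf2, a zinc finger factor, held 47.6, 36.0 and 26.0 CPM, 0.545 times the naïve level at 14 days (0.418 to 0.709), and had a log2 ratio of -0.03 where every member with any UMI of another cell type's markers was left out. Junb overlaps Prdx2 on the opposite strand and Stat3 overlaps Stat5a, which leaves these pairs uncertain.

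**Figure D2:**
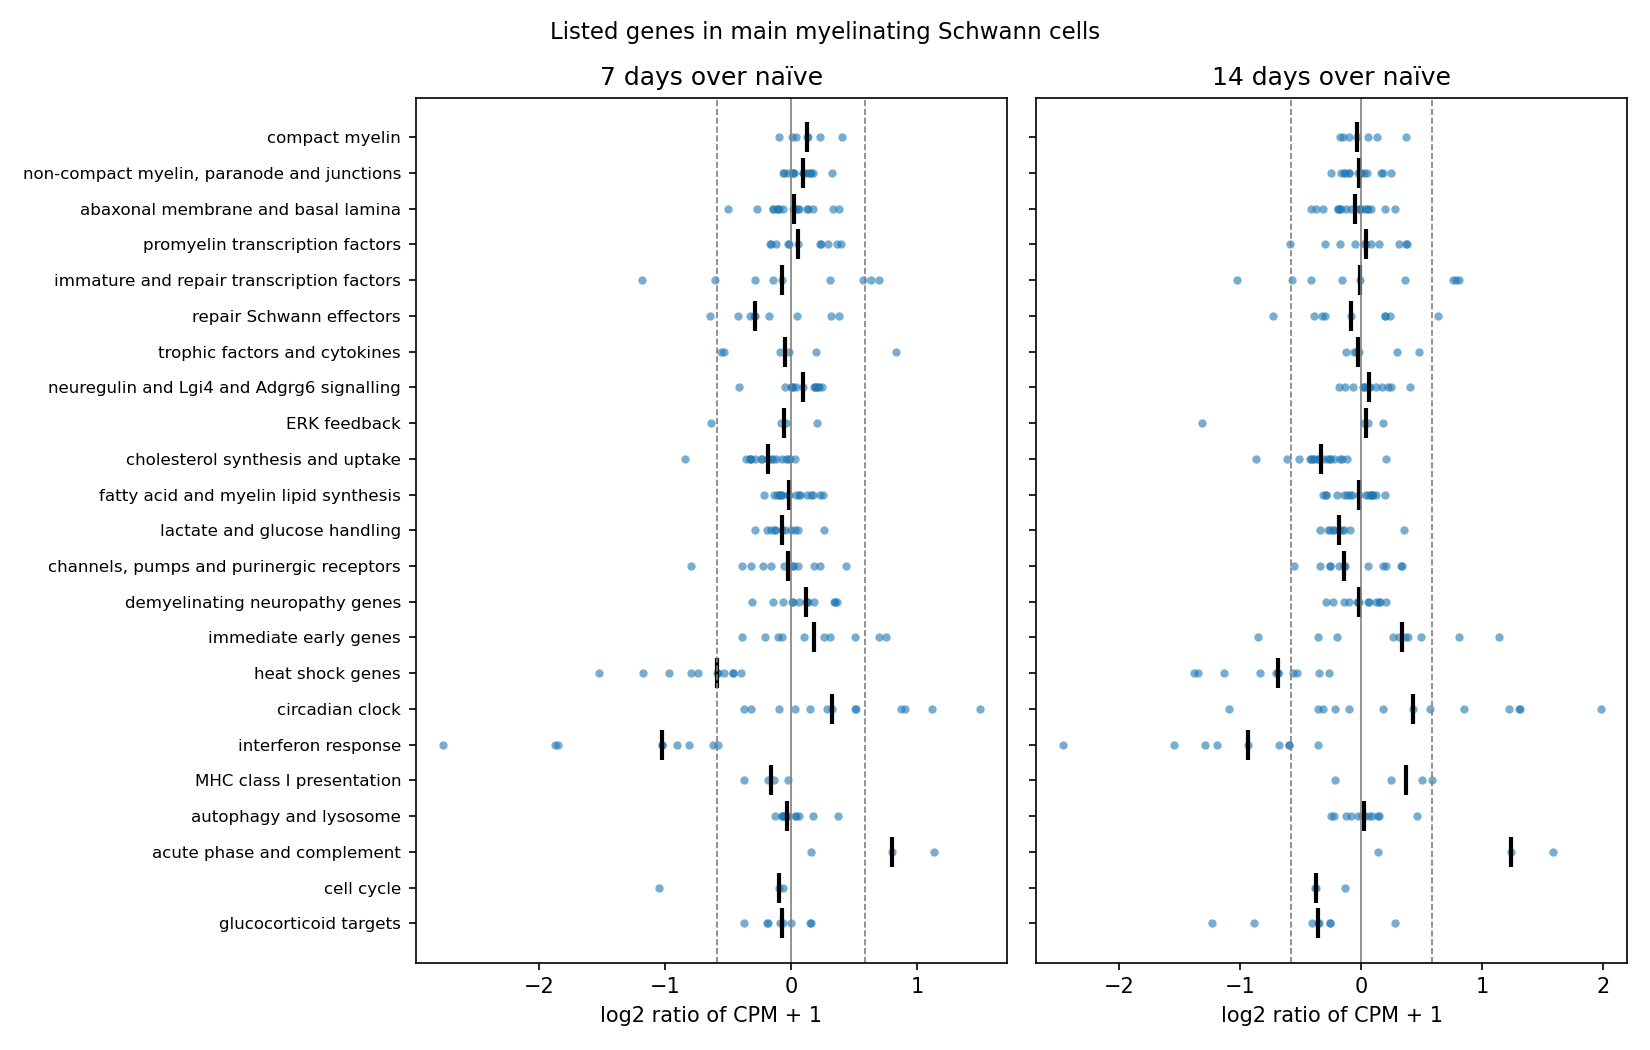
Ratio of the 7-day (left) and 14-day (right) library to the naïve library in main myelinating Schwann cells, as log2 of the ratio of CPM + 1, with 1 dot for each compared gene of 23 lists, a black bar at each list's median and dashed lines at 1.5-fold. The interferon list (medians -1.02 and -0.93) and the heat shock list (-0.59 and -0.69) lie to the left, and the clock list (0.32 and 0.43) lies to the right. The bar of the acute phase and complement list is not read, since Socs3 reached 20 CPM only through the injured libraries. Ifit1 reached 20 CPM only through the naïve library, so the interferon medians are a description.

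Other genes named by the size of their ratios moved in both injured libraries. Dusp8, a phosphatase that inactivates MAP kinases, held 25.1, 52.8 and 60.5 CPM. Both injured libraries were higher, 2.11-fold (1.58 to 2.84) and 2.41-fold (1.85 to 3.19), against 0.993 and 1.27-fold in the other kept cells. In the Lox set gate Dusp8 also had its lowest level in the naïve library, with 14.1, 28.3 and 50.3 CPM. Gstp1, a glutathione transferase, held 48.3, 25.8 and 18.4 CPM, 0.534 times (0.395 to 0.717) and 0.381 times (0.282 to 0.509) the naïve level. Its log2 ratio at 7 days was -0.35 where every member with any UMI of another cell type's markers was left out. Bgn, the matrix proteoglycan biglycan, held 66.7, 28.0 and 37.8 CPM, 0.420 times (0.318 to 0.550) and 0.567 times (0.454 to 0.706), with UMIs in 86, 40 and 70 members. In the Fabp7 gate Bgn held 230.5, 203 and 202.5 CPM. Satellite glia markers in members were highest in the naïve library (1404, 1078 and 1171 CPM), and their part in the values of Bgn was not tested. In members without any Fabp7 UMI the log2 ratios of Bgn were -1.32 and -0.73. In the Lox set gate Bgn ran the other way, with 41.6, 47.1 and 47.2 CPM and the naïve library lowest. Dusp8 overlaps Gm32786 on the opposite strand.

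At 7 days alone, Col3a1, a fibrillar collagen chain, held 95.6, 202 and 118 CPM and was 2.11-fold the naïve level (1.82 to 2.45). It is 1 of the 6 fibroblast markers, which summed to 516, 871 and 706 CPM in members and whose part in this value was not tested. Most of that sum was Apod, with 44.9% of its 7-day UMIs in 1 member, so no order is read from the sums. The chromatin remodeller Chd3 held 19.1, 37.1 and 23.2 CPM, 1.95-fold (1.39 to 2.76). Cyr61, a matricellular protein, held 13.4, 30.6 and 18.9 CPM, 2.28-fold (1.54 to 3.44), with UMIs in 24, 30 and 39 members. With 1000 or more genes and no more than 10% mitochondrial UMIs its log2 ratio at 7 days turned to -0.55. Nav2, a cytoskeleton-associated protein, held 55.4, 21.1 and 39.8 CPM, 0.381 times (0.277 to 0.518), in 51, 25 and 53 members. It held 297, 276 and 266 CPM in the Fabp7 gate and 5.37, 5.18 and 13.0 CPM in the Lox set gate. Satellite glia markers in members were lowest at 7 days, and their part in the level of Nav2 was not tested. In members without any Fabp7 UMI its log2 ratio at 7 days was -0.92, and with the mean of per-cell CPM it was -0.55, below the threshold.

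At 14 days alone, Mrps28, a protein of the mitochondrial ribosome, held 36.0, 28.4 and 12.6 CPM, 0.350 times the naïve level (0.244 to 0.496). Erh held 73.0, 55.3 and 34.8 CPM, 0.476 times (0.381 to 0.593), with 0.540 times in the other kept cells, and overlaps Slc39a9 on the opposite strand. Rasgef1b, a guanine nucleotide exchange factor of Ras family proteins, held 27.9, 29.1 and 13.9 CPM, 0.497 times (0.346 to 0.710) the naïve and 0.476 times (0.332 to 0.680) the 7-day level. The 14-day library was lowest for each of them. Wdr35, a protein of intraflagellar transport, held 14.5, 20.7 and 28.5 CPM, 1.97-fold at 14 days (1.37 to 2.89). The long non-coding RNA Meg3 held 25.8, 37.1 and 52.4 CPM, 2.04-fold (1.55 to 2.69).

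Genes of other cell types were counted in the members for 11 marker lists. The 6 macrophage markers summed to 7.76 CPM (4.87 to 11.8) in naïve members, 130 (117 to 144) at 7 days and 195 (181 to 209) at 14 days, and to 221, 1188 and 792 CPM in the other kept cells. Their UMIs lay in 10, 53 and 86 members, of which 2, 6 and 10 held at least 3. Lyz2, lysozyme, was the most abundant at 7 and 14 days and C1qa in the naïve library, where Csf1r was at 0. Lyz2 held 1.76, 39.3 and 82.9 CPM, 22.3-fold (9.26 to 70.0) and 47.0-fold (19.9 to 146), with 34.3% of its 7-day and 45.3% of its 14-day UMIs in 1 member. Csf1r, the receptor for colony stimulating factor, held 0, 17.8 and 21.2 CPM, at least 16.8-fold and at least 20-fold higher against the limit of 3 counts in the naïve library.

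Cd74, H2-Aa, H2-Ab1 and H2-Eb1, genes of class II antigen presentation, were named by the size of their ratios and form no fixed list. They were higher in both injured libraries, as were the macrophage markers, whose part in them was not tested. Cd74, the invariant chain, held 6.00, 76.4 and 122 CPM, 12.7-fold (7.77 to 22.3) and 20.4-fold (12.6 to 35.3), but 77.1% of its 7-day and 45.7% of its 14-day UMIs lay in 1 member. H2-Aa held 4.94, 44.8 and 92.2 CPM, H2-Ab1 3.53, 37.5 and 72.8 CPM, and H2-Eb1 1.76, 36.4 and 62.5 CPM. For these 3 genes 69.1%, 74.8% and 81.0% of the 7-day UMIs lay in 1 member. Without members that held at least 3 UMIs of macrophage, mural or red cell markers, a setting added after seeing the data that left 1027, 778 and 1087 members, the log2 ratio of Cd74 was 0.64 at 7 days and 2.02 at 14 days. That of H2-Ab1 was 0.37 and 1.42, that of Lyz2 1.90 and 1.90, and that of C1qa 1.42 and 1.61. Where every member with any UMI of another cell type's markers was left out, that of Cd74 was -0.07 at 7 days and 0.79 at 14 days.

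Hemoglobin genes, with 5 red cell markers, summed to 1131, 73.5 and 1239 CPM in members and to 301, 962 and 557 CPM in the other kept cells, so members were lowest at 7 days and other cells highest. Without the members that held at least 3 macrophage, mural or red cell UMIs, the log2 ratio at 7 days was 0.26 for Hbb-bs and 0.48 for Hbb-bt. Hbb-bs, the most abundant, held 518, 41.8 and 601 CPM, with 91.4% of its naïve and 63.0% of its 14-day UMIs in 1 member. Hba-a1 held 258, 12.0 and 288 CPM, with 89.6% and 59.0% in 1 member. The pairs Hba-a1 with Hba-a2 and Hbb-bs with Hbb-bt are near-identical and may share reads. The 6 mural markers summed to 156, 92.8 and 212 CPM against 664, 659 and 581 CPM in other cells, with Tagln the most abundant in each library and Kcnj8 at 0 in the naïve and 14-day members. Rgs5, a pericyte gene of this list, held 22.6, 8.73 and 60.5 CPM, and 90.0% of its 14-day UMIs lay in 1 member. Without each library's highest member its log2 ratio at 14 days turned from 1.38 to -1.03.

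The summed neuron markers were higher in both injured libraries of members. The 6 markers, of which Snap25 and Rbfox3 were part of the choice, summed to 94.2, 197 and 150 CPM against 4024, 4055 and 4988 CPM in the other kept cells, with Uchl1 the most abundant in naïve members and Tubb3 in injured members. Tubb3, a neuronal tubulin, held 17.6, 53.8 and 43.6 CPM, 3.05-fold (2.20 to 4.29) and 2.47-fold (1.79 to 3.46). Stmn2, a neuronal stathmin, held 14.5, 45.1 and 33.3 CPM, 3.12-fold (2.18 to 4.55) and 2.30-fold (1.61 to 3.35). Nefl, a neurofilament chain, held 21.9, 50.6 and 30.7 CPM and Ndrg4 15.2, 36.4 and 17.4 CPM, both highest at 7 days. In the other kept cells Tubb3 was 1.32 and 1.77-fold and Stmn2 1.14 and 1.33-fold. The part of neuronal RNA in these values was not tested. Tubb3 overlaps Gm20388 on its own strand and is uncertain.

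The remaining lists are given by their sums. The 6 fibroblast markers summed to 516, 871 and 706 CPM in members and to 1530, 2019 and 3074 CPM in the other kept cells, with Apod the most abundant in each library. Non-myelinating Schwann cell markers summed to 237, 169 and 188 CPM, mostly Ncam1, and markers of the Lox and Mfap5 subtype, which the choice limits, to 249, 188 and 200.3 CPM, mostly Mfap5. Endothelial markers summed to 28.6, 29.5 and 30.5 CPM, led by Egfl7, with Pecam1 and Cdh5 at 0 through the choice. Neutrophil markers summed to 8.12, 8.00 and 6.30 CPM, with Retnlg at 0 in the naïve and Csf3r at 0 in the 7-day members, and S100a9 led in the naïve and S100a8 in the injured libraries. Lymphocyte markers had 1, 4 and 8 UMIs, with Cd3e and Cd3g at 0 in each library, led by Cd79a, Trbc2 and Nkg7 in the naïve, 7-day and 14-day members.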

How the data were processed

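Single cell RNA libraries of 3 groups, 1 library each, were analysed from the count matrices the authors deposited, which hold UMI counts per gene and barcode for 31053 genes. The submitters' processing notes name Cell Ranger 3.0.2 and the mouse build mm10; whether strand was used is not given in the sources used here. Kept cells and members were chosen by the thresholds given with the results. Doublets were not removed; Scrublet, run through scanpy 1.11.5 at an expected rate of 5%, called 8, 3 and 3 members, and leaving them out was an alternative. UMIs were summed over members per library and given as counts per 1000000 UMIs (CPM) with exact Poisson intervals, ratios of summed counts with exact conditional binomial intervals and shares with Clopper-Pearson intervals (95%). Log2 ratios had 1 CPM added. No test was possible with 1 library a group. Code was tested on simulated data.

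The members, the 23 gene lists and the 12 marker lists were chosen with earlier results of these data known. Named genes were, among genes past 1.5-fold in both injured libraries with both intervals excluding 1, the 12 highest and 12 lowest by the smaller of the log2 ratios, and the 5 highest and 5 lowest past 1.5-fold in 1 injured library alone and between 14 and 7 days. All listed genes, the 15 most abundant, the 20 highest over other kept cells and the 15 most uneven (both at 50 CPM or more) were also named, and some listed genes are not reported here. Processing alternatives covered filters on cells and genes, member thresholds, scaling, thinning, pseudocount and other cells' markers. Gene positions came from GENCODE M21, which held 31011 of the gene identifiers. Python 3.11.15, numpy 2.4.6, scipy 1.17.1 and matplotlib 3.10.9 were used.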

Additional observations from a re-analysis of the deposited data

Results flagged for a closer look

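Hemoglobin genes moved in opposite directions in main myelinating Schwann cells and in the other kept cells of the same libraries, and this difference was not tested. From naïve to 7 days the log2 ratio of Hba-a1 was -4.32 in members and 1.58 in other cells, that of Hba-a2 -4.14 and 1.66, that of Hbb-bs -3.60 and 1.77, and that of Hbb-bt -4.02 and 1.48. From 7 to 14 days Hba-a1 had 4.47 in members and -0.86 in other cells, Hba-a2 4.28 and -0.66, Hbb-bs 3.81 and -0.76, and Hbb-bt 3.72 and -0.90. In the naïve library 1 member held from 89.6% to 96.7% of the UMIs of these genes, and in the 14-day library 1 member held from 56.6% to 63.0%. Without members of at least 3 macrophage, mural or red cell UMIs, a setting added after seeing the data, the members' log2 ratios at 7 days were -0.22 (Hba-a1), -0.14 (Hba-a2), 0.26 (Hbb-bs) and 0.48 (Hbb-bt). From 7 to 14 days they were 0.09, -0.13, -0.49 and -0.87 in the same order.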

How the results depend on the processing

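Each of 255 named genes was compared under 13 alternatives. The direction and the 1.5-fold call of Nr1d1, Nr1d2, Hlf, C4b, Socs3, Dusp8, Isg15, Ifit1, Bst2, Hspa1a and Hsph1 held in all 13 for both injured libraries over naïve, and those of Tsc22d3, Sgk1 and Arntl in all 13 at 14 days. Of 144 calls among the named genes, those kept with the same sign numbered 117 with 1000 or more genes and no more than 10% mitochondrial UMIs, 143 with no filter on cells, 128 with at least 4 of 7 myelin genes, 118 without any Fabp7 UMI, 135 without Scrublet calls, 123 with the mean of per-cell CPM, 123 with thinned members, 142 with median-ratio scaling, 140 without mitochondrial and compact myelin genes, 131 with a pseudocount of 5 CPM, and 94 without members holding any UMI of another cell type's markers (351, 185 and 232 members left). With the alternatives added after seeing the data they numbered 124 (at least 3 macrophage, mural or red cell UMIs left out) and 135 (each gene's highest member left out). For the values below that moved or reversed, the cause was not tested.

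Counts of genes are given in the order higher and lower at 7 days, at 14 days, at 14 over 7 days, and in both injured libraries. Past 2-fold there were 18, 22, 20, 18, 10, 4, 12 and 8. With 1000 or more genes and no more than 10% mitochondrial UMIs (432, 387 and 368 members) there were 225, 329, 296, 405, 199, 191, 107 and 151, and members were 35.73% of kept cells at 7 days and 27.0% at 14 days. At a mean of at least 50 CPM there were 23, 28, 32, 53, 15, 9, 12 and 10. With no filter beyond 1 UMI there were 1390, 1097, 1726, 899, 1387, 849, 715 and 385. Without members holding any UMI of another cell type's markers there were 442, 463, 465, 515, 493, 461, 167 and 133. With members thinned to 2000 UMIs there were 211, 165, 266, 226, 112 and 122 in the first 6, and 113 higher in both, with shares of 30.77%, 35.6% and 34.24%. The mean of per-cell CPM gave 125 higher at 7 days and 62 in both. Without mitochondrial and compact myelin genes 119 were higher at 7 days, 173 at 14 days, 82 at 14 over 7 days and 64 in both. Without any Fabp7 UMI 131 were higher at 7 days, 186 at 14 days and 70 in both, 79 were lower at 14 over 7 days, and shares were 26.74%, 22.6% and 20.98%. A pseudocount of 5 CPM gave 68 higher at 14 days and 33 higher and 24 lower at 14 over 7 days. With no filter on cells the shares were 30.74%, 25.91% and 25.59%, and with at least 4 of 7 myelin genes the naïve share was 31.25%. Genes higher at 7 days and at 14 days were 45.66% and 45.19% of those past 1.5-fold. The higher genes became the larger share with the mean of per-cell CPM (60.68% and 53.74%), with thinned members (56.12% and 54.07%), without any Fabp7 UMI (60.65% and 53.91%), without mitochondrial and compact myelin genes (51.29% and 55.81%), with no filter beyond 1 UMI (55.89% and 65.75%) and, past 2-fold, at 14 days (52.63%).

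Reversed log2 ratios were as follows. With 1000 or more genes and no more than 10% mitochondrial UMIs, Cyr61 had -0.55 at 7 days and 0.64 at 14 over 7 days, Hbb-bs 0.38 and Hbb-bt 0.59 at 7 days, Isg15 0.80 at 14 over 7 days, and Rgs5 -2.13 at 14 days and -0.76 at 14 over 7 days. With at least 4 of 7 myelin genes, Cd74 had -0.48, H2-Eb1 -0.10 and Lyz2 -1.18 at 14 over 7 days, and Rgs5 -1.81 at 14 days. Without Scrublet calls Rgs5 had 0.28 at 7 days. Without any Fabp7 UMI, Ccnd1 had 0.66 at 7 days and -0.07 at 14 over 7 days, Dcn -0.80 at 14 days and -1.25 at 14 over 7 days, Egr3 0.52 at 14 days, Hbb-bs -0.61 and Hbb-bt -0.43 at 14 over 7 days, and Ncam1 0.01 and Rgs5 0.12 at 7 days. Without members holding any UMI of another cell type's markers, Cd74 had -0.07 and Spry2 0.01 at 7 days, and Isg15 1.20, Nav2 -0.42 and Nefl 0.05 at 14 over 7 days. Without members of at least 3 macrophage, mural or red cell UMIs, Hbb-bs had 0.26, Hbb-bt 0.48 and Rgs5 0.52 at 7 days, and Hba-a2 -0.13, Hbb-bs -0.49, Hbb-bt -0.87 and Rgs5 -0.03 at 14 over 7 days. Without each gene's highest member, Hbb-bt had 0.60 at 7 days and Rgs5 -1.03 at 14 days.

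No paired analysis was possible because no group has more than 1 library. The intervals hold no spread between mice or preparations. The floor of 3 counts was 1.06, 1.09 and 0.756 CPM in the naïve, 7-day and 14-day members, so rarer RNAs could not be ranked, and genes under 20 CPM have wide intervals. Naïve members were shallower than injured members, and the order of the libraries' shares differed after thinning, which also left out shallower cells.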
